A study of Mus musculus with 6 samples.

Results

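The genes described here encode the heat shock protein families Hspa, Hspb, Hspd, Hspe, Hsph and Hsp90 and the J-domain (Dnaj) proteins of classes a, b and c. They were chosen by gene name among the protein-coding genes of the count table, which gave 72 genes of 54532 listed, or of 22046 protein-coding genes. The rule on names used no measured values, but the members were chosen with earlier results of these data known. Reads were counted in 6 libraries of CD4+ T cells that were enriched by magnetic negative selection from the spleens of male C57BL/6 mice, aged 6 to 8 weeks and with no engineered allele named. All cells were stimulated through CD3 and CD28 and kept for 72 h with IL-2, IL-12 and an antibody against IL-4, the conditions that direct CD4+ T cells to the IFN-γ-producing Th1 fate. Of these libraries, 3 came from cells given the vehicle, 0.1% DMSO (Th1), and 3 from cells given 500 nM ALX-5407, which blocks the glycine carrier GlyT1 (ALX-5407-treated Th1). The labels give an exposure of 72 h and the methods of the study give 24 h, and the cells were a bulk culture, so that fewer cells of a type and less RNA per cell cannot be told apart.

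Molecular chaperones bind unfolded stretches of other proteins and release them for folding, refolding or degradation. Hsp70 proteins do this in cycles of ATP binding and hydrolysis. J-domain proteins deliver substrates to them and start the hydrolysis, nucleotide exchange factors such as the Hsph1 product end the cycle, and Hsp90 proteins take over kinases and receptors at a later stage of folding. The cytosol, the endoplasmic reticulum (ER) and the mitochondrion each hold a set of their own, induced in the cytosol chiefly by the transcription factor HSF1 and in the ER by the unfolded protein response. Activated T cells raise protein synthesis and, as effector cells, secrete cytokines that fold in the ER.

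The libraries held 30801753 to 36727788 counts, and every pair of replicates within a group differed beyond counting noise. The first principal component of all tested genes explained 71.7% of the variance and set the groups apart, and Th1 replicate 3 stood apart from the other Th1 libraries on the second. Cd4 had 16126 to 22031 counts per library, each of 7 myeloid markers had at most 15 counts, and S100a8 and S100a9 were at 0. The 8 T-cell markers summed to 2577 to 2736 CPM with vehicle and to 2107 to 2189 CPM with ALX-5407, CPM being counts scaled to the library total, with totals adjusted by the TMM method. Of these 8, 2 were higher (Cd5 and Tbx21) and 4 lower, Ifng (660 to 383 CPM) and Cd4 (646 to 470 CPM) among them, and Trac had a log2 fold change of 0.007. The 5 B-cell markers summed to 7.60 to 8.84 CPM with vehicle and to 11.4 to 14.4 CPM with ALX-5407, and 3 of them passed the test as higher. A list of 8 genes that respond quickly to cell handling, and also to stimulation, held Fos, Fosb, Jun, Junb, Egr1, Ier2, Atf3 and Dusp1. Their sum was 910 to 1017 CPM with vehicle and 1221 to 1452 CPM with ALX-5407, with 5 higher and 1 lower. Whether handling, stimulation or the inhibitor moved them was not tested. Over all tested genes, 24.5% were higher and 23.2% lower. What part the shifts of the marker and quick-response genes had in the chaperone values was not tested.

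Chaperone transcripts moved in both directions. Of the 72 genes, 60 had enough counts to be tested by edgeR's quasi-likelihood test, and at a Benjamini-Hochberg adjusted p below 0.05 the transcripts of 16 were higher and 21 lower in ALX-5407-treated Th1 cells, while 23 were not called. Over all 15938 genes tested, 24.5% were higher, 23.2% lower and 47.7% called in either direction, beside 26.7% higher and 35% lower among the tested chaperone genes. Of tested protein-coding genes, to which all members belong, 29.5% were higher and 23.2% lower. The balance depended on scaling. With library totals alone in place of TMM, 20 chaperone genes were higher and 19 lower, beside 4484 and 3246 of all tested genes. Genes with many counts are called more often. At mean counts of at least 500, 62.8% of 43 chaperone genes and 61.5% of 8013 genes in all were called. The share of chaperone genes called was thus near that of genes of like abundance. At that level 30.2% of chaperone genes were higher and 32.6% lower, beside 34.4% and 27.1% of genes in all. The median log2 fold change (ALX-5407 over vehicle) of the tested chaperone genes was -0.053, with 27 above 0 and 33 below. Over all tested genes the median was 0.0053, and over protein-coding genes 0.052. The values of vehicle and ALX-5407-treated libraries did not overlap for 42 of the 60, and for 55.5% of all tested genes. At mean counts of at least 500 they did not overlap for 31 of 43 chaperone genes and for 5433 of 8013 genes in all. With an absolute log2 fold change above 1 as well, 1 chaperone gene was higher (Dnajc6) and 4 were lower (Hspa1a, Hspa1b, Hspb1 and Dnajc5b), beside 3.36% and 6.68% of all tested genes.

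Of the 37 called changes, 32 were thus within 1 on the log2 scale. By compartment, 8 of 35 tested genes of the cytosol or nucleus were higher and 15 lower (median -0.185), 5 of 13 ER genes were higher and 4 lower (median -0.036), and 3 of 8 mitochondrial genes were higher and 1 lower (median 0.140). The other 4 tested genes, which were not assigned to a compartment, held 1 lower gene. As shares, 22.9% of tested genes of the cytosol or nucleus were higher and 42.9% lower. For ER genes these were 38.5% and 30.8%, and for mitochondrial genes 37.5% and 12.5%. Beside them stand 24.5% and 23.2% over all tested genes, and 34.4% and 27.1% at mean counts of at least 500. The compartments were not tested against each other or against all genes. The remaining 12 genes had at most 15 counts in any library and were left out by the filter. Dnajc5g, Hspb2 and Hspb3 among them had no count in any library, and the others were Dnajb3, Dnajb7, Dnajb8, Dnajc22, Hspa12b, Hspa1l, Hspb7, Hspb8 and Hspb9.

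**Figure D1:**
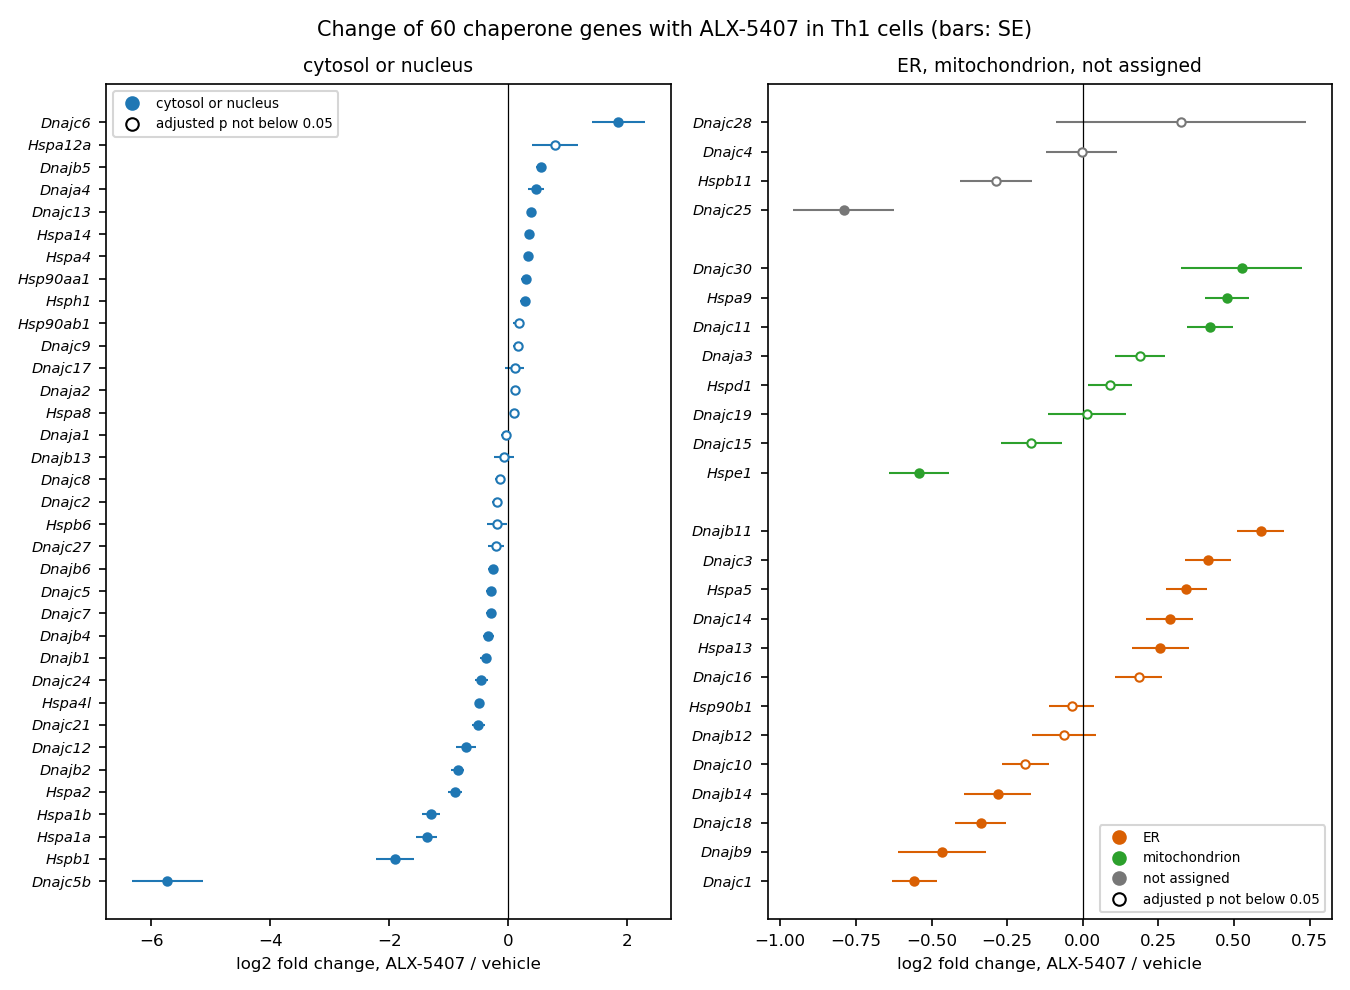
Log2 fold change (ALX-5407 over vehicle, with standard error) of the 60 tested chaperone genes, genes of the cytosol or nucleus in the left panel and ER, mitochondrial and unassigned genes in the right panel, with filled points for adjusted p below 0.05. Dnajc5b at -5.73 and Dnajc6 at 1.85 bound the range, and most other genes lie between -1 and 1.

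The inducible Hsp70 genes Hspa1a and Hspa1b, turned on by heat and proteotoxic stress, were both lower by more than 1 on the log2 scale. They lie in tandem on the minus strand of chromosome 17 (GRCm38), Hspa1b from 34956436 to 34959238 and Hspa1a from 34969190 to 34972156, with 9951 bases between them. Their promoters are shown because the pair moved together and cannot be fully separated by sequence. In the RefSeq sequence of GRCm38.p6, 247 of the 250 bases before their start sites are identical (5′ to 3′ on the minus strand, all in lower case as none of the motifs searched was found).
Hspa1a, chr17:34972157-34972406: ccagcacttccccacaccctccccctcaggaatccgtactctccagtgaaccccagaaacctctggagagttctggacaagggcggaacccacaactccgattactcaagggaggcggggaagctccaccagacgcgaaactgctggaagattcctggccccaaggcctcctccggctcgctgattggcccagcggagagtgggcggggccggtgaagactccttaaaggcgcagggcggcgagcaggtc
Hspa1b, chr17:34959239-34959488: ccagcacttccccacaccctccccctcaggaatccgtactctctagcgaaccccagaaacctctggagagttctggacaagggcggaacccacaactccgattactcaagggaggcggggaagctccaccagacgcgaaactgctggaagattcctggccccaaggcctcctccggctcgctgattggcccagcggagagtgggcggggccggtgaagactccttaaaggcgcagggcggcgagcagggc
Within the genes themselves, 58.8% of the 50-base stretches of Hspa1a also occur in Hspa1b, and 62.3% of those of Hspa1b occur in Hspa1a. How reads that match both were counted is not given in the sources used here, so the split between them is uncertain.

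Hspa1a was at 55.9, 48.8 and 58.9 CPM in the vehicle libraries and at 27.3, 23.2 and 12.5 CPM with ALX-5407. The log2 fold change in edgeR's quasi-likelihood test was -1.37 (SE, the standard error, 0.182; adjusted p = 1.25e-05). Every treated library lay below every vehicle library, and ALX-5407 replicate 3 was the lowest. Hspa1b was separated in the same way, at 110, 83.6 and 109 CPM with vehicle and 47.5, 47.3 and 28.3 CPM with ALX-5407. Its log2 fold change was -1.30 (SE 0.152, edgeR adjusted p = 3.52e-06). Summed, which removes the question of the split, the pair was at 166, 132 and 168 CPM with vehicle and 74.8, 70.6 and 40.8 CPM with ALX-5407. The group means of the sum were 155 ± 19.9 and 62.1 ± 18.5 CPM (SD, n = 3 each). Fitted in place of both genes, the sum had a log2 fold change of -1.32 (SE 0.159, edgeR adjusted p = 4.57e-06).

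**Figure D2:**
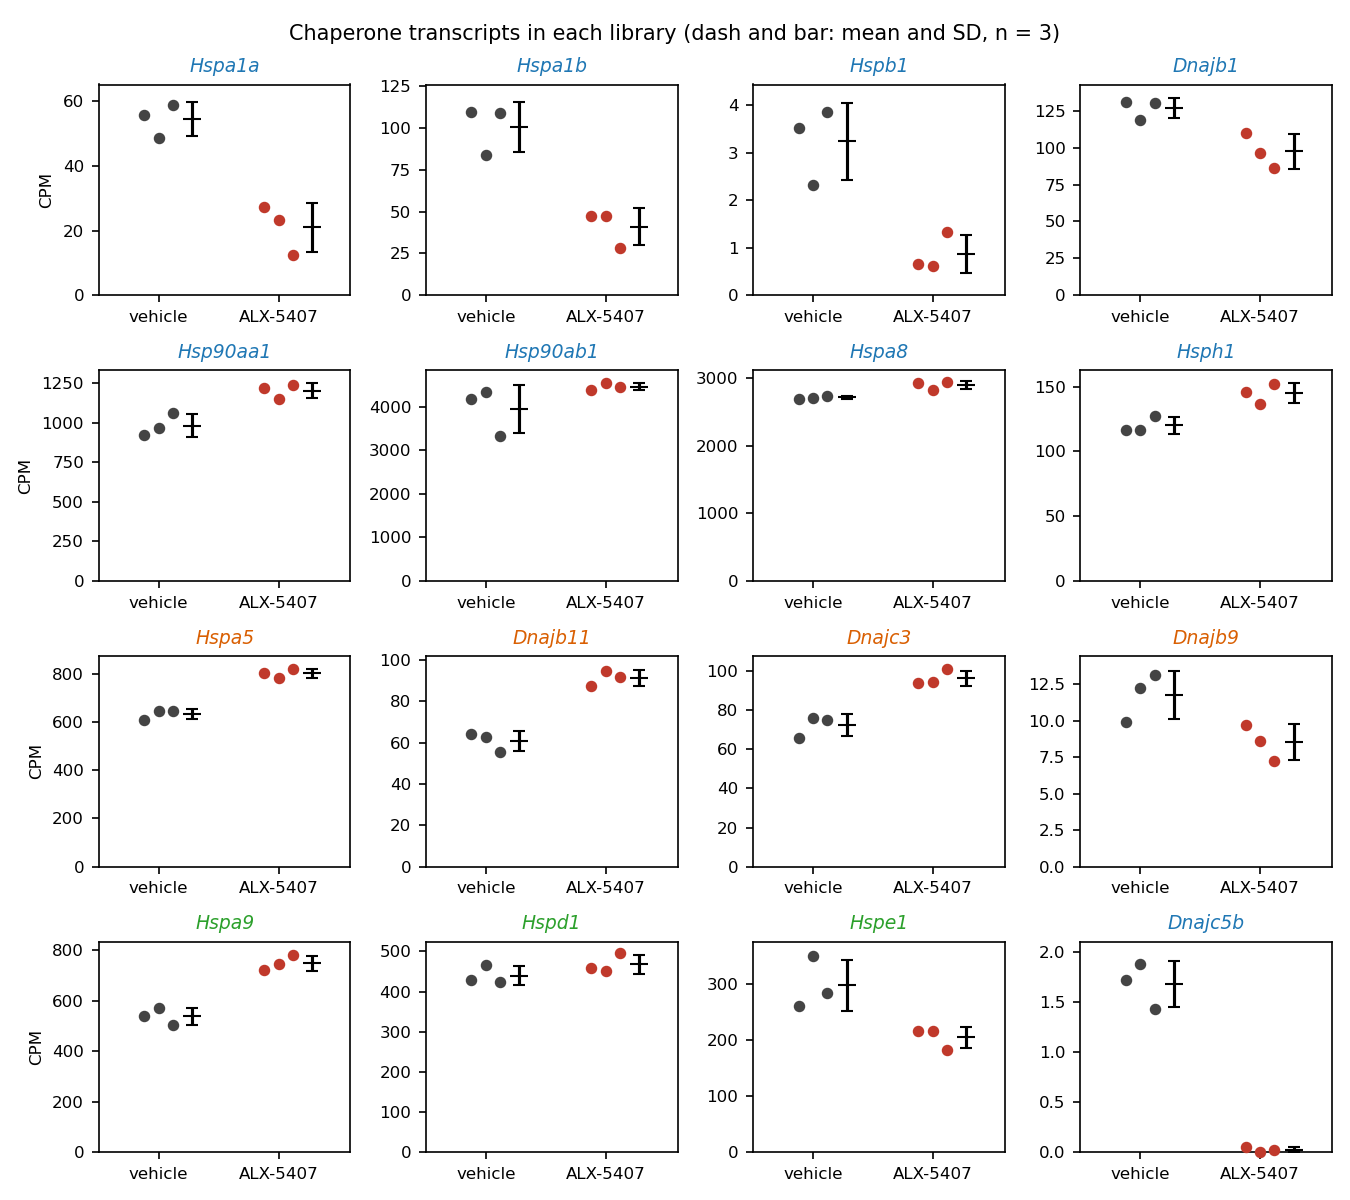
Level in CPM of 16 chaperone genes in each library, vehicle and ALX-5407, black points for vehicle and red for ALX-5407, with the mean and SD of each group (n = 3) as a dash and bar. The libraries of the groups interleave for Hspd1 and do not overlap for the others, as for 55.5% of all tested genes. Those with ALX-5407 are lower for Hspa1a, Hspa1b, Hspb1, Dnajb1, Dnajb9, Hspe1 and Dnajc5b. They are higher for Hsp90aa1, Hsp90ab1, Hspa8, Hsph1, Hspa5, Dnajb11, Dnajc3 and Hspa9.

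Other genes known as heat shock targets moved by different amounts and not all in the same direction. Hspb1, a small heat shock protein that holds unfolded proteins without ATP, was at 3.53, 2.33 and 3.87 CPM with vehicle and 0.651, 0.617 and 1.34 CPM with ALX-5407. These levels were low (23 to 119 counts), but the groups did not overlap, and the log2 fold change was -1.90 (SE 0.319, edgeR adjusted p = 0.000131). Its processed copy Hsp25-ps1 had at most 2 counts in any library. Dnajb1, the J-domain partner of the inducible Hsp70 proteins, was at 131, 119 and 131 CPM with vehicle and 110, 96.1 and 86.4 CPM with ALX-5407. All treated libraries were below the vehicle libraries, with a log2 fold change of -0.38 (SE 0.0859, edgeR adjusted p = 0.00163). Hsph1, the nucleotide exchange factor also called Hsp110, went the other way, from 116, 116 and 127 CPM to 146, 137 and 152 CPM. Its groups did not overlap either, and its log2 fold change was 0.27 (SE 0.0726, edgeR adjusted p = 0.0052).

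The cytosolic Hsp90 genes and Hspa8, the constitutive Hsp70, carried most of the chaperone counts. Hsp90ab1, the constitutive Hsp90, was at 4182, 4342 and 3325 CPM with vehicle and 4386, 4549 and 4458 CPM with ALX-5407. The groups did not overlap, yet Th1 replicate 3 was far below the other vehicle libraries, and the log2 fold change of 0.18 (SE 0.0883, edgeR adjusted p = 0.112) was not called. With library totals alone in place of TMM scaling, the fold change was 0.24 and passed (edgeR adjusted p = 0.0215), as it did without the filter on low counts (0.19, 0.0336), whereas without Th1 replicate 3 it was 0.05 (edgeR adjusted p = 0.479). Hsp90aa1, the inducible Hsp90, was at 921, 966 and 1061 CPM with vehicle and 1223, 1149 and 1239 CPM with ALX-5407. All treated libraries were higher, with a log2 fold change of 0.29 (SE 0.0742, edgeR adjusted p = 0.00379). Its processed copy Gm12346, which holds 41.8% of its 50-base stretches, rose by 0.31 in the same fit (adjusted p = 0.0322). Hspa8 was at 2696, 2710 and 2729 CPM with vehicle and 2922, 2826 and 2934 CPM with ALX-5407. The libraries did not overlap, but the log2 fold change of 0.09 (SE 0.066, edgeR adjusted p = 0.262) was not called. Of the 50-base stretches of Hspa8, 39.4% occur in other genes. The processed copy Gm15459, which holds 34.6%, had no count in any library.

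Per kilobase of gene length, the only scale on which levels of different genes are compared here, Hsp90ab1 came first with a mean of 1317 CPM per kb with vehicle and 1489 with ALX-5407. Hspa8 followed at 630 and 673, and Hsp90aa1 at 250 and 306. In single libraries Hsp90ab1 alone held 25.9% to 31.5% of all chaperone counts, and these 3 genes together held 55.4% to 59.0%. Below them Hspe1, Hspd1, Hspa5, Hspa9 and Hsp90b1 had means of 202, 166, 150, 137 and 124 CPM per kb with vehicle. With ALX-5407 the same 5 genes had 139, 177, 190, 190 and 121, so that Hspe1 left the head of this group, and Hspa5 and Hspa9 could not be ordered, as their difference was smaller than the SDs of 4.40 and 7.43.

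The 72 genes together made up 1.28% to 1.51% of the counts. Their summed level was 13503 ± 656 CPM with vehicle and 14557 ± 131 CPM in treated cells (SD, n = 3 each). The sum is governed by the few abundant genes, whereas the counts of called genes are governed by the many genes of lower level.

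**Figure D3:**
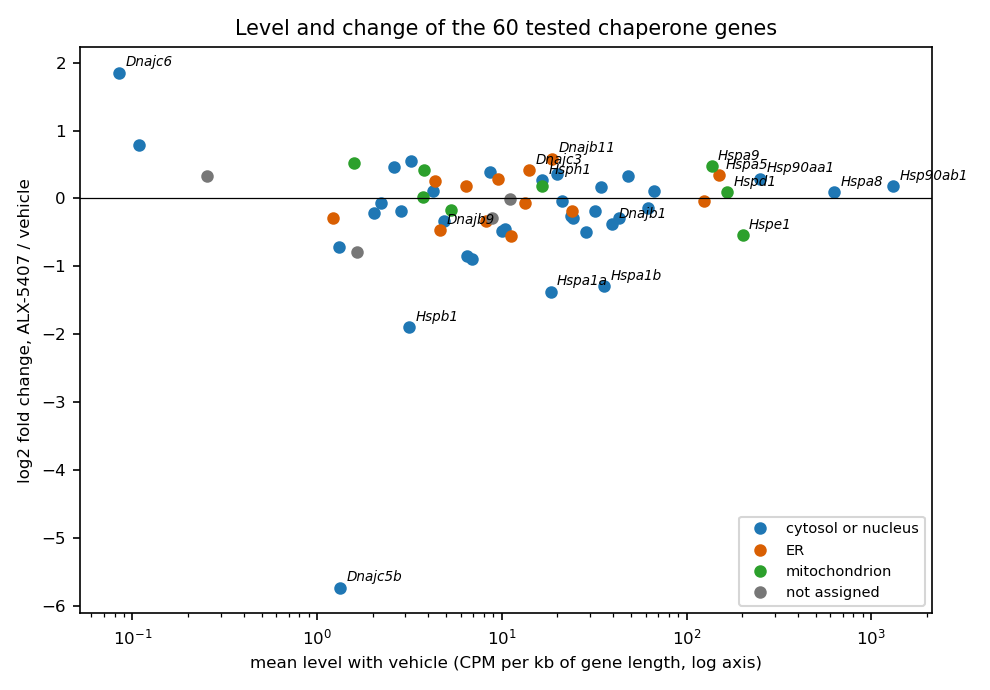
Mean level with vehicle (CPM per kb of gene length, log axis) against log2 fold change for the 60 tested chaperone genes, coloured by compartment. The genes at or above 100 CPM per kb lie between -0.54 (Hspe1) and 0.48 (Hspa9), and the 5 genes beyond 1 in either direction lie below 40 CPM per kb.

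Among the other Hsp70-type genes of the cytosol, those of the Hsp110 branch went different ways. Hspa4, which recharges Hsp70 with ATP as Hsph1 does, was at 260, 284 and 255 CPM with vehicle and 337, 322 and 347 CPM with ALX-5407. The treated libraries were all higher, with a log2 fold change of 0.33 (SE 0.0715, edgeR adjusted p = 0.00115). Its close relative Hspa4l was lower (log2 fold change -0.48, edgeR adjusted p = 9.59e-05). Hspa14, a ribosome-associated Hsp70, was higher (0.36, edgeR adjusted p = 0.000945), and Hspa2, best known from the testis, was lower from 18.4, 19.2 and 16.9 CPM to 11.1, 9.44 and 8.84 CPM (-0.90, edgeR adjusted p = 1.18e-05). Hspa12a was not called at a log2 fold change of 0.79 (edgeR adjusted p = 0.101), nor was the small heat shock gene Hspb6 (-0.19, edgeR adjusted p = 0.388).

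Of 22 tested J-domain genes of the cytosol or nucleus, 4 were higher and 10 lower, with a median of -0.197. These are 18.2% and 45.5%, beside 24.5% and 23.2% over all tested genes, and the difference was not tested. Dnaja1, a broadly expressed substrate carrier of Hsp70, was at 168, 190 and 189 CPM with vehicle and 179, 171 and 181 CPM with ALX-5407. The groups overlapped, and the log2 fold change of -0.04 was not called (edgeR adjusted p = 0.66). Dnajb6, which keeps aggregation-prone proteins soluble, was at 142, 160 and 128 CPM with vehicle and 122, 118 and 122 CPM with ALX-5407, all treated values being below the vehicle values. Its log2 fold change was -0.25 (SE 0.0805, edgeR adjusted p = 0.0167), a call lost without Th1 replicate 2 (-0.18, adjusted p = 0.0921) or ALX-5407 replicate 2 (-0.23, adjusted p = 0.0791) and with library totals alone (-0.19, adjusted p = 0.0502). A heat shock element is shown in its promoter below.

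The other called J-domain genes of this compartment were Dnajb2 (-0.85), Dnajc12 (-0.71), Dnajc21 (-0.50), Dnajc24 (-0.45), Dnajb4 (-0.34), Dnajc7 (-0.29), Dnajc5 (-0.29) and Dnajc5b on the lower side and Dnajb5 (0.55), Dnaja4 (0.47), Dnajc13 (0.39) and Dnajc6 on the higher side, in log2 fold change with adjusted p from 1.03e-06 to 0.00734 in edgeR. Dnajb2 delivers ubiquitinated clients to the proteasome, Dnajc21 acts in ribosome assembly, Dnajc7 links Hsp70 with Hsp90, Dnajc13 acts on endosomes and Dnajc5 guards exocytosis as cysteine string protein. Of the exon bases of Dnaja4, 44.1% lie under Wdr61 on the opposite strand, which had a log2 fold change of 0.03, and whether counting used strand is not given in the sources used here. Dnaja2 (0.11), Dnajb13, Dnajc2 (-0.18), Dnajc8 (-0.14), Dnajc9 (0.17), Dnajc17 and Dnajc27 were not called.

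The largest changes in either direction belonged to J-domain genes with few counts. Dnajc5b, a paralogue of Dnajc5 (chromosome 3, 19508595 to 19610862), had 56, 59 and 44 counts with vehicle and 2, 0 and 1 with ALX-5407. The groups were wide apart, with sums of 159 and 3 counts, and the ratio of vehicle to ALX-5407 at equal depth was 60.3 (95% interval 20.3 to 295, exact and for counting error only). The fitted log2 fold change was -5.73 (SE 0.597, edgeR adjusted p = 1.03e-06), and it ranged from -6.57, without ALX-5407 replicate 1, to -5.17, without ALX-5407 replicate 2. Dnajc6, the auxilin that strips clathrin coats with Hsp70 (chromosome 4, 101496648 to 101642799), had 30, 6 and 12 counts with vehicle and 43, 72 and 82 with ALX-5407. In CPM the vehicle libraries were at 0.921, 0.191 and 0.39 and the treated libraries at 1.22, 1.93 and 2.34, without overlap. The log2 fold change was 1.85 (SE 0.445, edgeR adjusted p = 0.00263), and with each replicate left out in turn it ranged from 1.45 to 2.63, the latter without Th1 replicate 1.

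In the ER, transcripts of the lumenal Hsp70 and of its J-domain partners Dnajb11 and Dnajc3 rose, those of its partners Dnajc1 and Dnajb9 fell, and those of the ER Hsp90 and of Dnajc10 were not called. Hspa5 encodes BiP, the Hsp70 of the ER lumen and the usual readout of the unfolded protein response. It was at 608, 645 and 648 CPM with vehicle and 805, 784 and 821 CPM with ALX-5407. All treated libraries were above the vehicle libraries, the log2 fold change being 0.34 (SE 0.068, edgeR adjusted p = 0.000578). Dnajb11, the J-domain protein that works with BiP on unfolded clients, was at 64.1, 62.8 and 55.2 CPM with vehicle and 87.4, 94.8 and 91.8 CPM with ALX-5407. Without overlap, its log2 fold change was 0.59 (SE 0.0777, edgeR adjusted p = 1.22e-05). Dnajc3, a BiP partner that also restrains the kinase PERK, was at 66.0, 76.0 and 74.9 CPM with vehicle and 94.1, 94.3 and 101 CPM with ALX-5407, again without overlap (log2 fold change 0.41, SE 0.0764, edgeR adjusted p = 0.000299).

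Hsp90b1, which encodes the ER Hsp90 (GRP94), was at 456, 526 and 517 CPM with vehicle and 476, 476 and 509 CPM with ALX-5407. The groups interleaved, and the log2 fold change of -0.04 was not called (edgeR adjusted p = 0.723). Dnajb9, a J-domain protein that restrains the sensor IRE1 through BiP and is a standard target of XBP1, was at 9.95, 12.3 and 13.2 CPM with vehicle and 9.74, 8.60 and 7.27 CPM with ALX-5407. The groups were separated by a narrow gap, with a log2 fold change of -0.47 (SE 0.144, edgeR adjusted p = 0.0138), and the call was lost without ALX-5407 replicate 3 (-0.36, adjusted p = 0.0739). Dnajc10, a disulfide reductase of ER-associated degradation, was at 114, 112 and 132 CPM with vehicle and 104, 99.6 and 111 CPM with ALX-5407, and its log2 fold change of -0.19 was not called (edgeR adjusted p = 0.0587). Hspa13, a microsomal Hsp70-like protein, was at 27.5, 27.8 and 33.7 CPM with vehicle and 37.6, 35.3 and 33.4 CPM with ALX-5407. Its groups overlapped, and the log2 fold change of 0.26 (edgeR adjusted p = 0.0358) was not called without Th1 replicate 1 (adjusted p = 0.158), Th1 replicate 2 (0.150), ALX-5407 replicate 1 (0.133) or ALX-5407 replicate 2 (0.0784).

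The sum over the 13 ER genes was 1768 ± 73.0 CPM with vehicle and 1932 ± 39.3 CPM in treated cells (SD, n = 3 each). Of 8 genes of the ER lumen, 4 were higher and 2 lower, beside 24.5% and 23.2% of all tested genes. Dnajc1, a membrane-anchored partner of BiP with its J domain in the lumen, fell from 131, 138 and 122 CPM to 92.7, 88.8 and 84.1 CPM without overlap (log2 fold change -0.56, edgeR adjusted p = 1.38e-05). Of 5 J-domain genes of the ER membrane, Dnajc14 was higher (0.29) and Dnajc18 (-0.34) and Dnajb14 (-0.28) lower, while Dnajb12 and Dnajc16 (0.18) were not called. Of the exon bases of Dnajc14, 19.9% lie under exons of other genes, mostly on the opposite strand. Ormdl2, which shares most with it, was not called (-0.19, edgeR adjusted p = 0.226). The call for Dnajb14 (edgeR adjusted p = 0.0476) was lost without Th1 replicate 1 (0.0627), Th1 replicate 2 (0.169), ALX-5407 replicate 1 (0.228) or ALX-5407 replicate 3 (0.0752).

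In mitochondria, the Hsp70 gene rose, and of the chaperonin genes the Hsp10 gene fell while the Hsp60 gene was not called, a difference between them that was not tested. Hspa9 encodes mortalin, the Hsp70 that pulls proteins through the inner membrane and folds them in the matrix. It was at 539, 569 and 505 CPM with vehicle and 721, 744 and 779 CPM with ALX-5407. The groups were wide apart, with a log2 fold change of 0.48 (SE 0.0722, edgeR adjusted p = 4.75e-05). Hspd1, which encodes the barrel of the chaperonin, was at 429, 467 and 423 CPM with vehicle and 458, 451 and 495 CPM with ALX-5407. These values interleaved, and the log2 fold change of 0.09 was not called (SE 0.0723, edgeR adjusted p = 0.329).

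Hspe1, which encodes the lid of the same chaperonin, was at 261, 349 and 283 CPM with vehicle and 215, 216 and 183 CPM with ALX-5407. All treated libraries were below the vehicle libraries, with a log2 fold change of -0.54 (SE 0.099, edgeR adjusted p = 0.000285). The pair is arranged head to head on chromosome 1, Hspd1 on the minus strand from 55077835 to 55088243 and Hspe1 on the plus strand from 55088132 to 55091307, with an overlap of 112 bases. Other genes hold 42.1% of the 50-base stretches of Hspd1 and 22.8% of those of Hspe1. The copy Hspd1-ps3, which holds 38.0% of those of Hspd1, had 227, 216 and 229 counts with vehicle and 570, 330 and 318 with ALX-5407 (log2 fold change 0.68, edgeR adjusted p = 0.00854).

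Among the mitochondrial J-domain genes, Dnaja3, a partner of mortalin in the matrix, was at 72.0, 60.3 and 62.0 CPM with vehicle and 78.1, 70.3 and 73.2 CPM with ALX-5407. The groups overlapped, and the log2 fold change of 0.19 was not called (edgeR adjusted p = 0.0681). Dnajc15, of the import motor, was at 37.5, 31.0 and 35.5 CPM with vehicle and 34.8, 27.5 and 30.2 CPM with ALX-5407 (log2 fold change -0.17, edgeR adjusted p = 0.185), also with overlap. Dnajc19, of the same motor, was at 15.1, 16.0 and 14.0 CPM with vehicle and 17.8, 15.5 and 12.3 CPM with ALX-5407, with treated values on both sides of the vehicle values (0.02, edgeR adjusted p = 0.937). Dnajc11, which acts in the shaping of cristae, was higher (0.42, edgeR adjusted p = 0.000292).

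Dnajc30 was higher at a low level, from 2.76, 2.74 and 2.34 CPM to 3.23, 4.40 and 3.68 CPM (0.53, edgeR adjusted p = 0.0397). The call for Dnajc30 was lost without any 1 of the 3 Th1 replicates (adjusted p = 0.0740, 0.0753 and 0.114) and without ALX-5407 replicate 2 (0.164) or 3 (0.0616). Of its exon bases 26.3% lie under Bud23, which was higher as well (0.45, edgeR adjusted p = 0.00081). The sum over the 8 mitochondrial genes was 1433 ± 92.0 CPM with vehicle and 1599 ± 26.0 CPM in treated cells (SD, n = 3 each). Of the unassigned genes, Dnajc25 was lower (-0.79, edgeR adjusted p = 0.000966), and Dnajc4, Dnajc28 and Hspb11 were not called.

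Promoter windows of 300 bases from RefSeq (GRCm38.p6, 250 before the start site and 50 after it) were at hand for 52 of the 72 genes and for 14275 protein-coding genes in all. The other 20 genes were not searched, and Hsp90aa1, Hsp90ab1, Hspa8, Hspa9, Dnajc5b and Dnajc6 were among them. The heat shock element, taken as GAA, TTC and GAA with any 2 bases between neighbours and searched on both strands, was found in 3 of the 52 windows (Hspe1, Dnajb6 and Hsph1) and in 64 (0.448%) of all. The ER stress element, CCAAT and CCACG with any 9 bases between them on either strand, was also found in 3 (Hspa5, Hsp90b1 and Dnajc3) and in 24 (0.168%) of all. The XBP1 motif TGACGTGG and the ATF4-type motif TGATGCAA, on either strand, were in none of the 52 and in 0.771% and 0.89% of all windows. A match is a stretch of letters and not a measured site, and a window without a match says only that these letters are not in it. The Hsph1 match, which starts 36 bases after the start site and is not shown, came from a gene that was higher. The stretches shown with a heat shock element came from genes that were lower. The motif is in capitals (2 overlapping matches in Hspe1), and each of these stretches is read 5′ to 3′ on the plus strand.
Hspe1, chr1:55088053-55088082: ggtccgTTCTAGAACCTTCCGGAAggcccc
Dnajb6, chr5:29735843-29735872: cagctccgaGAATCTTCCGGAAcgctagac
The ER stress element stretches are shown because the genes that hold them split, Hspa5 and Dnajc3 being higher and Hsp90b1, with 2 matches, not called. The strand is plus for Hspa5 and Dnajc3 and minus for Hsp90b1, and capitals mark the motif on either strand.
Hspa5, chr2:34772019-34772048: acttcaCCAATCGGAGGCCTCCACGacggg
Dnajc3, chr14:118937682-118937931: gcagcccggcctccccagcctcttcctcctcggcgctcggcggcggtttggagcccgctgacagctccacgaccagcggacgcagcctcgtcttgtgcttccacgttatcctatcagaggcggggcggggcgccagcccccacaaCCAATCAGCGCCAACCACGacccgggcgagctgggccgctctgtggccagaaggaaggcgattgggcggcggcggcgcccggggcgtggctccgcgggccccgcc
Hsp90b1, chr10:86705510-86705694: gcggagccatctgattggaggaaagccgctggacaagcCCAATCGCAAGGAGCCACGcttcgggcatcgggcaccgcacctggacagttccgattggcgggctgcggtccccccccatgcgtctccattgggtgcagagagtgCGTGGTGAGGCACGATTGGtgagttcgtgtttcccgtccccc

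Genes that regulate or assist these chaperones were taken from lists of 89 genes. Among the 87 with enough counts to test, 25 were higher and 24 lower, with a median log2 fold change of 0.029. These are 28.7% and 27.6%, near the shares over all tested genes given above and those of protein-coding genes, 29.5% and 23.2%. The HSF family was on the lower side where it was called. Hsf1, the main activator of heat shock genes, was at 35.7, 33.7 and 31.1 CPM with vehicle and 37.1, 35.6 and 33.6 CPM with ALX-5407, with overlap, and was not called (log2 fold change 0.08, edgeR adjusted p = 0.457). Hsf2 went from 50.1, 49.4 and 54.2 CPM to 33.8, 33.9 and 36.9 CPM without overlap (-0.56, edgeR adjusted p = 2.95e-05). Hsf4 (-1.13) and Hsbp1 (-0.29), an inhibitor of HSF1, were also lower, and Hsf5 was not tested.

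Co-chaperones of cytosolic Hsp70 and Hsp90 were higher in 9 of 23 cases and lower in 4. These are 39.1% and 17.4%, beside 24.5% and 23.2% of all tested genes, and the difference was not tested. Fkbp5, an immunophilin of the Hsp90-steroid receptor complex and a glucocorticoid target, moved most, from 51.1, 50.2 and 46.8 CPM to 109, 102 and 104 CPM (log2 fold change 1.09, edgeR adjusted p = 1.04e-08). Ahsa1 (0.45), the activator of the Hsp90 ATPase, and Stub1 (0.70), the ubiquitin ligase CHIP, followed by p, while Sugt1 (-0.42), Hspbap1 (-0.46) and Ahsa2 (-0.33) were lower. Of 14 genes of the cytosolic chaperonin TRiC and of prefoldin, which hands it actin and tubulin, 2 were higher (Cct3, 0.28, and Cct7, 0.19) and 4 lower, with Pfdn5 (-0.66), Pfdn1 (-0.77) and Tcp1 (-0.34) the smallest in p.

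The partners of the ER chaperones were split as well. The counts below stand beside 24.5% higher and 23.2% lower over all tested genes. Of 16 tested folding enzymes and helpers of the ER, 7 were higher, led in p by Hyou1 (0.54), the nucleotide exchange factor of BiP, Pdia4 (0.55) and Ero1l (0.50), and 3 were lower, P4hb (-0.55), Ppib (-0.31) and Fkbp2 (-0.51). Of 16 genes for ER stress sensing and ER-associated degradation, 4 were higher, with Sel1l (0.99), Herpud1 (0.49) and Atf6 (0.45) first in p, and 6 were lower, with Eif2ak3 (-0.74), Atf4 (-0.69) and Sec61b (-0.64) first. Eif2ak3 encodes PERK, and Atf4 the transcription factor made when PERK is active. Of 14 mitochondrial import and protease genes, Lonp1 (0.41), Clpb (0.34) and Grpel2 (0.36) were higher and Hscb (-0.64), Afg3l2 (-0.33), Timm44 (-0.35) and 1 more were lower.

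**Figure D4:**
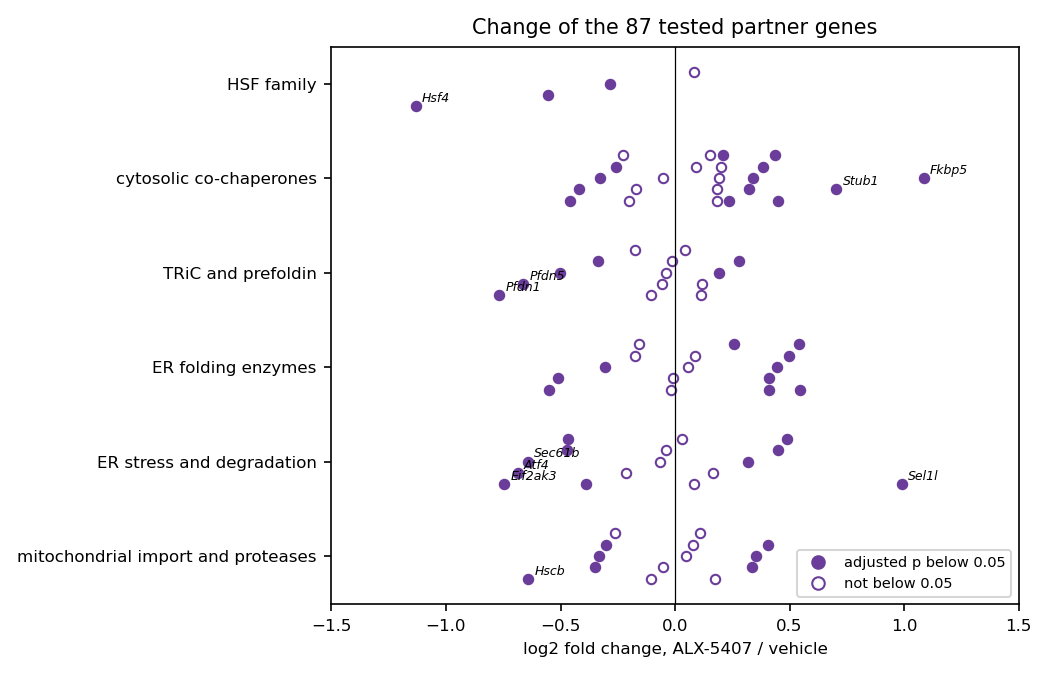
Log2 fold change (ALX-5407 over vehicle) of the 87 tested partner genes, 1 row per list, with filled points for adjusted p below 0.05. Called genes lie on both sides of 0 in every list but the row named HSF family. Its 3 called genes, Hsf2, Hsf4 and the HSF1 inhibitor gene Hsbp1, are below 0. Fkbp5 at 1.09 and Hsf4 at -1.13 lie farthest out.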

How the data were processed

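Poly(A)-selected or rRNA-depleted RNA (the labels and the study's methods differ) of 6 libraries was sequenced. The submitters' processing notes name fastp, HISAT2 2.0.5, featureCounts 1.5.0-p3 and mm10, and the options for strand and for reads with several matches are not given in the sources used here. The authors deposited raw counts per gene, without normalization or pooling. From them, edgeR 4.0.16 (R 4.3.3) was applied with filterByExpr (minimum count 10, minimum total 15), TMM scaling, the quasi-likelihood test of all 6 libraries and Benjamini-Hochberg adjustment over 15938 genes, and genes with an adjusted p below 0.05 were called. CPM used TMM-scaled totals, and levels between genes were divided by the deposited gene length. TMM factors were 0.965 to 1.03. The standard error was the log2 fold change divided by the root of F. The procedure was tested on simulated counts of 15593 genes, 15397 of them without a true change, unlike the data. At true log2 fold changes of -0.5 and 0.5, 36.7% and 58% of genes were called, and at -1 and 1, 74.5% and 68%. No call was in the wrong direction. A gene that was not called is thus not shown to be unchanged.

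The p-values set the difference between groups against the spread among the 3 libraries within each group, which edgeR moderates over all genes. The labels call the replicates biological but name no animals, so whether that spread is one between animals is not known. With 3 against 3, an exact permutation p could not go below 0.1. The rule on gene names used no measured values, but the members and lists were chosen with earlier results of these data known. Compartments came from general knowledge. By plan, values per library were given for the best known genes of each compartment and for called genes with an absolute log2 fold change above 1. Among partners they were planned for Hsf1 and Hsf2, with fold changes for up to 3 called genes of smallest p per list and direction. Values per library of Hspa2, Dnajc1, Dnajc30, Fkbp5 and Hspd1-ps3 were added after they were seen. Other genes were also named after their values were seen. Exons and shared 50-base stretches were taken from GENCODE M21 on GRCm38, where all 72 identifiers were found and 69 had the same start and end. No RefSeq promoter window was used if its start lay over 1000 bases from the deposited one. Alternatives were DESeq2 1.42.0, limma-voom (limma 3.58.1), DESeq2 size factors, library totals alone, no filter, protein-coding genes only, a fold change threshold, a replicate block and each replicate left out. Figures were drawn with matplotlib 3.10.9 in Python 3.11.15.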

Additional observations from a re-analysis of the deposited data

How the results depend on the processing

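Of the 37 called chaperone genes, 32 were called in every alternative run, the fold change threshold aside, and all 37 kept their sign in them. The exceptions were Dnajb6, Dnajb9, Hspa13, Dnajb14 and Dnajc30, of which the last 3 were also lost in DESeq2 (adjusted p = 0.0501, 0.0658 and 0.0855), Hspa13 and Dnajc30 among protein-coding genes only (0.0728 and 0.0526), Dnajb14 with library totals alone (0.114), Dnajb14 and Dnajc30 without the filter (0.0697 and 0.0510) and Dnajc30 in limma-voom (0.0509). With an absolute log2 fold change above 1 required as well, 1 chaperone gene was higher and 4 were lower. With 1 replicate left out, 14 to 15 were higher and 19 to 23 lower, and 2 to 4 ER genes were lower, 2 of them without ALX-5407 replicate 3. With library totals alone, which moved the median of all genes by 0.059, 20 were higher and 19 lower, Dnaja1 had a log2 fold change of 0.015 and Hsp90b1 of 0.022. Among protein-coding genes only, 14 were higher and 25 lower, and Dnajc19 had -0.032. With each replicate left out, Dnajc19 ranged from -0.11 to 0.15. Called only in some alternatives were Hsp90ab1, Dnajc10, Dnaja3, Dnajc2, Dnajc8, Dnajc9, Dnajc16 and Hspb11. The cause of these shifts was not tested.

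Whether the replicate numbers pair the samples could not be decided, as 3 libraries per group are too few. The correlations of same-numbered deviations from the group means were 0.00889, 0.0181 and 0.104 for replicates 1, 2 and 3. Th1 replicates 2 and 3 correlated best with the ALX-5407 replicate of the same number. Th1 replicate 1 correlated best with ALX-5407 replicate 2 (0.0925). With the replicate number as a block, 17 chaperone genes were higher and 23 lower. Depth limits Dnajc5b, Dnajc6 and Hspb1, and the 12 untested genes.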
